A study of Homo sapiens with 12 samples.

Results

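Metallothioneins are small cysteine-rich proteins that hold zinc, copper and cadmium through their cysteine thiols. The members described here were 8 genes chosen by symbol from a list named with earlier results of these data in view: MT1A, MT1E, MT1F, MT1G, MT1M, MT1X, MT2A and MT1P1. They are 8 of the 21 annotated metallothionein genes and pseudogenes in the table. MT1P1 is a processed pseudogene that was picked for its value in PANC1 deltaNp63 cells, so its values are given without a test. The other 7 code for protein and lie in the metallothionein cluster on the long arm of chromosome 16.

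RNA was measured in 12 libraries of 2 established human pancreatic cancer cell lines, ASPC1 and PANC1. ASPC1 came from the ascites of a patient with pancreatic adenocarcinoma and PANC1 from a primary ductal carcinoma. Each line was studied as Mock, with TAp63 overexpressed (TAp63 O/E) and with deltaNp63 overexpressed (deltaNp63 O/E), and each of the 6 groups held 2 samples that the labels call biological replicates. TP63 has an upstream promoter, which gives the TAp63 proteins, and a second one inside the gene, whose deltaNp63 products lack the full amino-terminal transactivation domain. The labels used here name neither the vector nor the promoter that drives the constructs, and do not say whether expression was transient or stable or whether the cells were clones. Whether replicates were separate cultures is not spelled out either, so p-values measure the spread between these samples.

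Metallothionein transcription is driven largely by MTF1, a zinc-sensing factor that binds metal response elements near the gene starts. The same factor drives SLC30A1, which exports zinc from the cell, and glucocorticoids and oxidative stress also raise metallothionein mRNA in many cells. In the pancreas, acinar cells handle zinc that leaves with the pancreatic juice, and metallothioneins buffer it. MT2A and the MT1 genes are made in many tissues, whereas MT3 and MT4 are best known from brain and stratified epithelium.

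The coding sequences show how near these genes are to each other, which bears on every value below, since reads of 1 gene can match another. MT2A is printed because it was the most abundant member in PANC1 and far lower in ASPC1, and MT1G because it differed most in the other direction. Capitals mark the cysteine codons, of which each of the 7 coding members has 20. Both are read 5′ to 3′ from GENCODE v44 on hg38.
MT2A: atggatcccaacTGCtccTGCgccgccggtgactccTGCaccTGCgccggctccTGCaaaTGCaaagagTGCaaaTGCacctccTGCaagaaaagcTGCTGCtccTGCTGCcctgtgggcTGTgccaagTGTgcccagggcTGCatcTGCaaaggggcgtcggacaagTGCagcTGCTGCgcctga
MT1G: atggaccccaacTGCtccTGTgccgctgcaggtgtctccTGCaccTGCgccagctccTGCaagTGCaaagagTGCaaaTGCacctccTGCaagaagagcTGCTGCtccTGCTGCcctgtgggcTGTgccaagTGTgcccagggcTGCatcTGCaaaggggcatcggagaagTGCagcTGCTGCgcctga

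The coding sequences were 186 bases long, or 189 in MT1G, which has 62 amino acid codons in place of 61. Identity between pairs of the 7 ranged from 88.7% for MT1F and MT1X to 94.6% for MT1A and MT1E. MT1P1, at 183 bases, had 169 positions identical to MT1A, 14 mismatches and 3 gap columns, an identity of 90.9%.

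The lines differed in the amounts and in the mixture of metallothioneins. In Mock cells, 6 of the 6 coding members other than MT1G passed the test between PANC1 and ASPC1, where 72.5% of the 14767 genes tested also passed. The Mock groups overlapped for 0 of these 6, against 87.6% of all genes without overlap. MT2A, MT1A, MT1E, MT1X and MT1M were higher in PANC1, and MT1F was lower. The median log2 difference of the 6 was 0.86, against 0.24 over all genes tested. MT1G, near 0 throughout PANC1, is described separately and left out of these counts. In ASPC1 none of the 7, and in PANC1 none of the 6 without MT1G, passed the test for TAp63 or deltaNp63 against Mock.

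**Figure D1:**
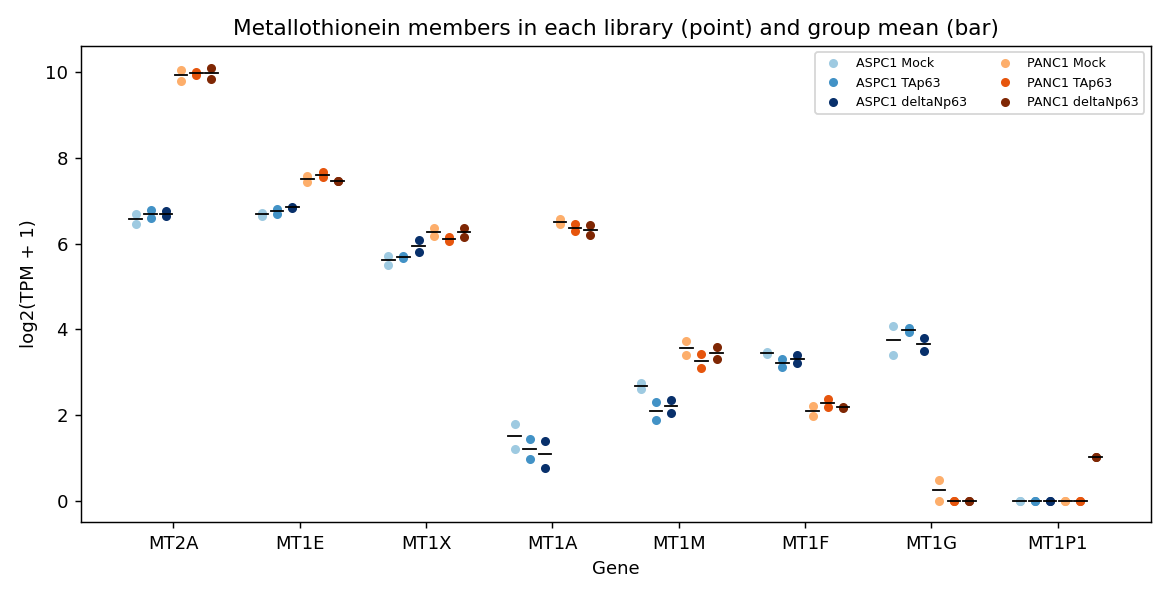
Levels of the 8 members as log2(TPM + 1), the vertical axis, by gene on the horizontal axis; each point is a library, each short bar the mean of 2 libraries, and colours are the 6 groups. The blue ASPC1 points and orange PANC1 points of MT2A and MT1A stand far apart, while the groups of a line lie close together, and MT1G is near 0 in PANC1.

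MT2A, the most abundant metallothionein in PANC1, was at 86.5 and 102 TPM (a transcript's relative abundance, scaled to the same sum in each library) in ASPC1 Mock, 96.1 and 109 with TAp63, and 107 and 99.6 with deltaNp63. In PANC1 it was at 894 and 1066 TPM in Mock, 1031 and 975 with TAp63, and 920 and 1104 with deltaNp63. All 6 PANC1 libraries were above all 6 ASPC1 libraries, and the 3 groups of each line overlapped. The mean was 10.4-fold higher in PANC1 Mock, a log2 difference of 3.37 (SE 0.12, limma adjusted p = 4.05e-09). By its mean level, MT2A ranked 129 of 14767 genes in PANC1 and 1526 in ASPC1.

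MT1A was low in ASPC1 and high in PANC1. Its ASPC1 values were 1.31 and 2.46 TPM in Mock, 0.960 and 1.73 with TAp63, and 0.702 and 1.64 with deltaNp63. The PANC1 values were 86.7 and 93.6 TPM in Mock, 87.5 and 76.9 with TAp63, and 72.1 and 84.8 with deltaNp63. No ASPC1 library came near any PANC1 library. The mean TPM was 47.9-fold higher in PANC1 Mock, with a log2 difference of 5.01 (SE 0.25, limma adjusted p = 3.98e-08).

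MT1E, the leading metallothionein of ASPC1, was at 99.4 and 104 TPM there in Mock, 103 and 111 with TAp63, and 113 and 115 with deltaNp63. In PANC1 the values were 174 and 191 TPM in Mock, 202 and 188 with TAp63, and 175 in both deltaNp63 libraries. Its lines did not overlap, but the gap was much narrower than for MT2A. The Mock means differed 1.80-fold, a log2 difference of 0.84 (SE 0.08, limma adjusted p = 4.73e-06).

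MT1X was at 44.6 and 51.6 TPM in ASPC1 Mock, 49.6 and 51.0 with TAp63, and 67.0 and 55.2 with deltaNp63. PANC1 Mock gave 71.5 and 81.2 TPM, TAp63 65.7 and 69.8, and deltaNp63 70.5 and 81.4. The lines overlapped when all groups were pooled, since 1 ASPC1 deltaNp63 library exceeded the lowest PANC1 TAp63 library. Between the Mock groups, which did not overlap, the log2 difference was 0.66 (SE 0.12, limma adjusted p = 7.18e-04).

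MT1M was a minor member in both lines. It was at 5.11 and 5.74 TPM in ASPC1 Mock, 2.68 and 3.93 with TAp63, and 4.10 and 3.16 with deltaNp63. PANC1 Mock gave 9.59 and 12.2 TPM, TAp63 9.67 and 7.59, and deltaNp63 11.04 and 8.82. The Mock means differed 2.01-fold, a log2 difference of 0.88 (SE 0.20, limma adjusted p = 0.00221).

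MT1F went the other way. It was at 9.71 and 10.1 TPM in ASPC1 Mock, 8.89 and 7.66 with TAp63, and 8.33 and 9.53 with deltaNp63. Its PANC1 values were 3.61 and 2.91 TPM in Mock, 4.14 and 3.52 with TAp63, and 3.55 and 3.50 with deltaNp63. Every ASPC1 library was above every PANC1 library. The mean was 3.04-fold higher in ASPC1 Mock, and the log2 difference of PANC1 from ASPC1 was -1.36 (SE 0.13, limma adjusted p = 6.46e-06).

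MT1G was measured almost entirely in ASPC1. Its ASPC1 libraries were at 9.60 and 15.9 TPM in Mock, 15.4 and 14.2 with TAp63, and 12.9997 and 10.3 with deltaNp63. In PANC1, 1 Mock library was at 0.388 TPM and the other 5 were listed at 0. MT1G therefore passed the filter on low values through ASPC1 alone, so a difference between the lines was bound to appear. As a description, with no test, its log2 difference was -3.51, or -5.82 when 0.1 rather than 1 was added before taking logs.

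In bulk RNA, fewer cells that express a gene and less RNA per cell cannot be told apart, which holds for all of these levels. The lines carried the markers of epithelial cells: all 5 fixed epithelial markers, among them KRT8 and EPCAM, were at or above 1 TPM in every library. Their summed level was between 7131 and 10554 TPM in ASPC1 and between 3483 and 3851 in PANC1. The median of each of the 5 was lower in PANC1. EPCAM was between 1256 and 1410 TPM in ASPC1 and between 42.6 and 49.5 in PANC1. CDH1 was between 81.8 and 123 TPM in ASPC1 and between 2.37 and 3.74 in PANC1. Of the ductal markers, SOX9 and KRT7 were at or above 1 TPM in every library, and CFTR did not exceed 1.304. Insulin (INS) and somatostatin (SST) from islets and acinar AMY2A were at 0 in all libraries, and the leukocyte gene PTPRC did not exceed 0.0102 TPM. The other acinar and islet markers, PRSS1, CPA1, CELA3A and GCG, stayed below 1 TPM in every library, with CELA3A highest at 0.860. Some markers of other lists were high. Of the 4 leukocyte markers, LYZ was between 102 and 130 TPM in ASPC1 and CD68 between 90.8 and 288 across both lines. Of the fibroblast markers, LUM was between 177 and 288 TPM in ASPC1 and COL1A1 between 80.8 and 111 in PANC1. The other 4 of the 5 fibroblast markers stayed below 1 TPM in every library of the line. Their part in the metallothionein levels was not tested.

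The summed level of the 8 members was between 256 and 313 TPM in the 6 ASPC1 libraries (288 ± 19.6, SD, n = 6) and between 1239 and 1458 in the 6 PANC1 libraries (1353 ± 96.1, SD, n = 6). That was between 0.0256% and 0.0313% of a library in ASPC1 and between 0.124% and 0.146% in PANC1. The mixture differed as well as the sum. MT1E held between 35.7% and 39.0% of the sum in ASPC1 and MT2A between 33.8% and 36.6%, with MT1X at 17.1% to 21.4%. In PANC1, MT2A held between 72.1% and 75.7%, MT1E 12.03% to 14.4%, MT1A 5.75% to 6.999% and MT1X 4.69% to 5.77%. MT1A held at most 0.843% in ASPC1. The sum leaves out ENSG00000291105, a noncoding gene of the cluster described below. That gene was between 2.69 and 6.10 TPM in ASPC1 libraries and between 671 and 750 in PANC1 libraries. Counting it would lower the shares given for PANC1.

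**Figure D2:**
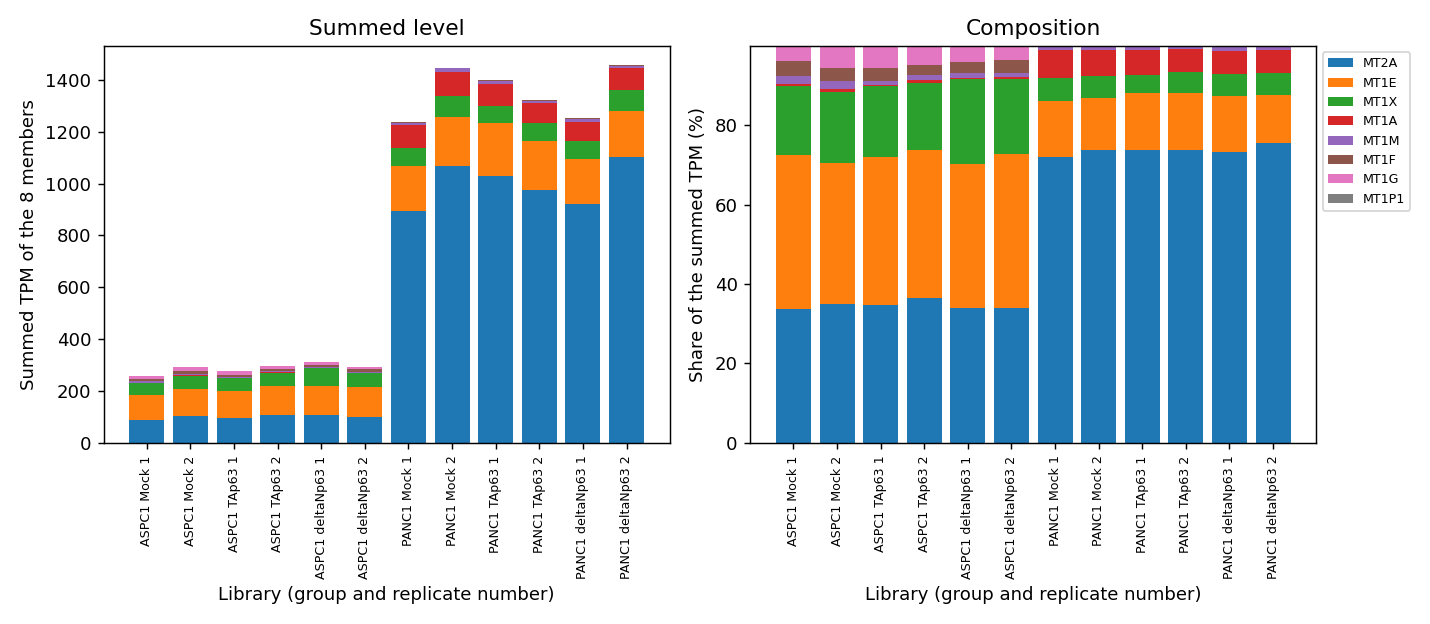
Left, summed TPM of the 8 members in each of the 12 libraries, stacked by gene; right, the same as a share of the sum (%). PANC1 bars reach 1239 to 1458 TPM and are mostly MT2A, and ASPC1 bars stay at 256 to 313 TPM, split mainly between MT1E and MT2A. The noncoding gene ENSG00000291105 of the cluster is not in the sum.

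By mean TPM, the order in ASPC1 was MT1E, MT2A, MT1X, MT1G, MT1F, MT1M, MT1A and MT1P1. The ranges of MT1E and MT2A overlapped, although MT1E was the higher in all 6 libraries. Those of MT1G and MT1F overlapped too, with MT1G higher in 5 of 6. In PANC1 the order was MT2A, MT1E, MT1A, MT1X, MT1M, MT1F, MT1P1 and MT1G. MT1A and MT1X overlapped in range there, with MT1A higher in all 6 libraries, and MT1P1 and MT1G overlapped near 0. The other neighbours in either order did not overlap.

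Position in the cluster went with direction over a run of genes, as a description. On hg38, MT2A lies at chr16:56608584-56609497, MT1E at chr16:56625475-56627112, MT1M at chr16:56632659-56633981 and MT1A at chr16:56638666-56640087, all on the plus strand and all higher in PANC1. Further along come MT1F at chr16:56657731-56660698 on the plus strand and MT1G at chr16:56666730-56668065 on the minus strand, both higher in ASPC1. MT1H, a coding gene that is no member, lies next to MT1G, at 0.382 to 1.91 TPM in ASPC1 and 0 to 0.834 in PANC1. It passed the filter through ASPC1 alone, so its log2 difference of -0.72 between the Mock groups is a description with no test. MT1X, at chr16:56682470-56684196 at the far end, was again higher in PANC1.

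The strongest gap in the cluster belonged to a gene outside the list. The unnamed long noncoding RNA gene ENSG00000291105, named here after its values were seen, spans the pseudogene MT1L at chr16:56617423-56618832, between MT2A and MT1E. Its 1 transcript was between 2.69 and 6.10 TPM in the ASPC1 libraries and between 671 and 750 in the PANC1 libraries. The Mock means were 6.05 and 708 TPM, 117-fold higher in PANC1, with a log2 difference of 6.65. Because the gene was named after its values were seen, this is a description with no test. In PANC1 libraries its level was below that of MT2A and above that of MT1E. MT1L itself was listed at 0 in all 12 libraries, and each of the 156 words of 31 bases in its transcript is also found in ENSG00000291105.

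**Figure D3:**
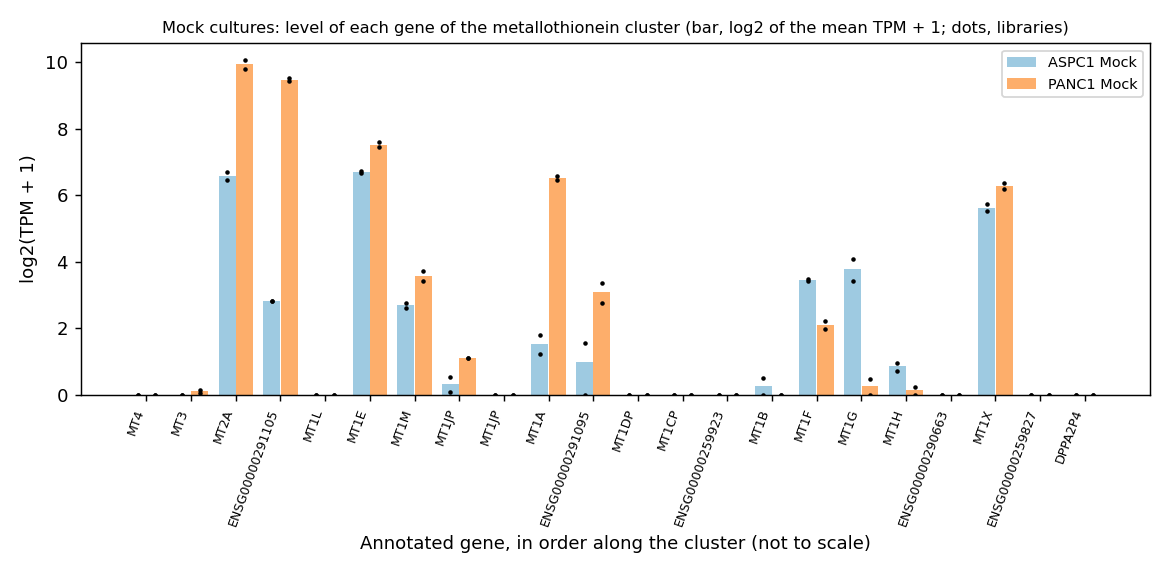
Mean level as log2(TPM + 1) in the 2 Mock groups for each annotated gene of the cluster, in order along chromosome 16 (order only, distances not drawn); bars are means of 2 libraries and points the libraries. PANC1 bars are the taller from MT2A to MT1A, ASPC1 bars at MT1F and MT1G, and ENSG00000291105 shows the widest gap.

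The rest of the family was listed at low values. Of the 13 metallothionein genes and pseudogenes that are no members, 3 passed the filter: MT1H, the MT1JP noncoding gene ENSG00000290662 and the pseudogene MT1XP1. MT1JP was at most 0.456 TPM in ASPC1 and between 0.877 and 1.31 in PANC1, a log2 difference of 0.79 between the Mock groups. It passed the filter through PANC1 alone, so this is a description with no test. MT1XP1 was above 0 in 2 ASPC1 libraries only, at 2.11 TPM in Mock replicate 2 and 3.37 in TAp63 replicate 2. The brain-associated MT3 did not exceed 0.111 TPM, MT1B was at 0.407 in 1 library, and 7 genes, MT4 among them, were listed at 0 everywhere. MT1L and MT1DP were also listed at 0, but all their words of 31 bases occur in ENSG00000291105 and ENSG00000291095, respectively. ENSG00000291095 was at most 3.05 TPM in ASPC1 libraries and between 5.73 and 13.4 in PANC1 libraries. The zeros of MT1L and MT1DP therefore do not show that their loci were silent.

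How much sequence each transcript shares limits how firmly reads can be given to it. Of the words of 31 bases in the most abundant MT1X transcript, 54.0% also occur in transcripts of other annotated genes. Many of them, 136 words, are in ENSG00000259827, a noncoding gene listed at 0 in every group. With the metallothionein family MT1X shares 86 of its 374 words, and MT1M shares 146 of 368. The share was 39.7% for MT1M, 37.5% for ENSG00000291105, 32.0% for MT1P1, 31.5% for MT2A and 31.1% for MT1G. It was 18.9% for MT1A, 15.3% for MT1E and 13.9% for MT1F. How the authors' program divided shared reads is not given in the sources used here, so levels of near-identical genes are uncertain.

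**Figure D4:**
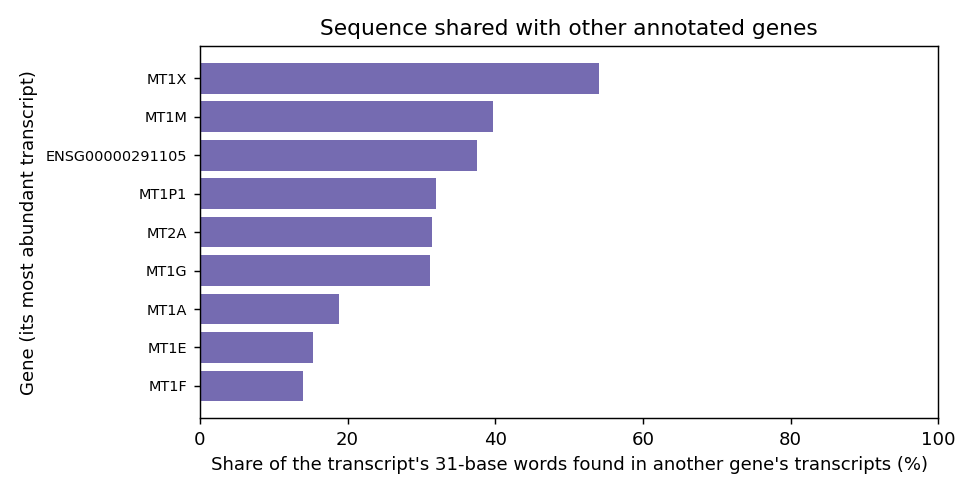
Share of the 31-base words of each gene's most abundant transcript that are also found in transcripts of another annotated gene (horizontal axis, %), by gene. MT1X is highest at 54.0% and MT1F lowest at 13.9%. Many of the shared MT1X words are in ENSG00000259827, a noncoding gene listed at 0 in every group.

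Promoter sequence was at hand for MT2A and MT1X, 2 of the 8 members matched in the RefSeq table (GRCh38.p14). The 250 bases before each start are printed on the plus strand, the strand of both genes, with capitals at the core of the metal response element, the site that MTF1 binds. The cores searched were TGCACNC and TGCGCNC on both strands, with matches that overlap each counted.
MT2A promoter, chr16:56608334-56608583: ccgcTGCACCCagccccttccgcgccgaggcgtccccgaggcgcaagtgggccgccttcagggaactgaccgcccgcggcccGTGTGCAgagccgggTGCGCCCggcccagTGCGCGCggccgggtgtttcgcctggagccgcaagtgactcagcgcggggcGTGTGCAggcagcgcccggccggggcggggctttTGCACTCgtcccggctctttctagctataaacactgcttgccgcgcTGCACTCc
MT1X promoter, chr16:56682220-56682469: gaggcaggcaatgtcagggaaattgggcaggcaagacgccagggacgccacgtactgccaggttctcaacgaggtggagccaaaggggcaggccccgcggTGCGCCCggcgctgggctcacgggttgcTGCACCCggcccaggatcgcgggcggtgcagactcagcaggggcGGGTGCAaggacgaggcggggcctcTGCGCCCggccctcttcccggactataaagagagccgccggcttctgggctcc

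MT2A held 7 matches, 5 of them on the plus strand, from 246 to 8 bases before the start. MT1X held 4, between 150 and 53 bases before the start. Of 35116 promoters of the same length, 24.8% held at least 1 match and 0.37% held at least 4. The matches are a description of these letters and not evidence of binding. Neither promoter held a match, on either strand, to the p53 family decamer, which p63 also binds and which 5.57% of promoters held.

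TP63, summed over its transcripts, was higher with each construct than in Mock, and higher with deltaNp63 than with TAp63. Such a sum cannot tell TAp63 from deltaNp63 transcripts. Contrasts between the constructs therefore also differ in the level of TP63. Mean TP63 was 0.958 TPM in ASPC1 Mock, 136 with TAp63 and 298 with deltaNp63, and 0.0719, 333 and 1001 TPM in the same PANC1 groups.

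In ASPC1, TAp63 against Mock called 0.637% of all genes and 0 of the 7 coding members. The count over all genes, 94, was 1 with only the libraries of that line, 42 without ASPC1 TAp63 replicate 1 and 412 without ASPC1 deltaNp63 replicate 1. MT1M came nearest, with a log2 change of -0.59 (95% confidence interval -1.03 to -0.15, limma adjusted p = 0.207), and was the 1 member with an unadjusted p under 0.05, against 2233 of all genes. Its TAp63 libraries were both below its Mock libraries. Member changes ranged from -0.59 to 0.24, with a median of 0.07 against -0.08 over all genes. Groups did not overlap for 2 of the 7 members, MT1M and MT1F, against 46.6% of all genes.

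In ASPC1, deltaNp63 against Mock called 7.14% of all genes and again 0 of the 7. MT1X, higher in both deltaNp63 libraries, had a log2 change of 0.34 (95% confidence interval 0.06 to 0.61, limma adjusted p = 0.104). MT1M, lower in both, had -0.48 (95% confidence interval -0.91 to -0.04, limma adjusted p = 0.137). These 2 had an unadjusted p under 0.05, as did 4383 of all genes. The members' median was -0.09, against -0.12 over all genes, and 4 of 7 did not overlap between groups, against 52.1% of all genes.

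Calls in this contrast depended on scaling and on single libraries, for the members as for all genes. Over all genes, 94 were called higher and 961 lower, but 51 and 148 with quantile normalization and 249 and 170 with median centring, and the count ranged from 98 without ASPC1 Mock replicate 1 to 4057 without ASPC1 deltaNp63 replicate 2. With only the ASPC1 libraries in the fit, 8 genes were called, 3 higher and 5 lower. With each library centred on the median of its genes, MT1E passed, at 0.37 (limma adjusted p = 0.0404), where it had been 0.16 with an adjusted p of 0.194. Without ASPC1 deltaNp63 replicate 2, which held less MT1X than replicate 1, MT1X passed at 0.47 (limma adjusted p = 0.0240). Over all alternatives, the adjusted p ranged from 0.0404 to 0.492 for MT1E and from 0.0240 to 0.488 for MT1X.

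**Figure D5:**
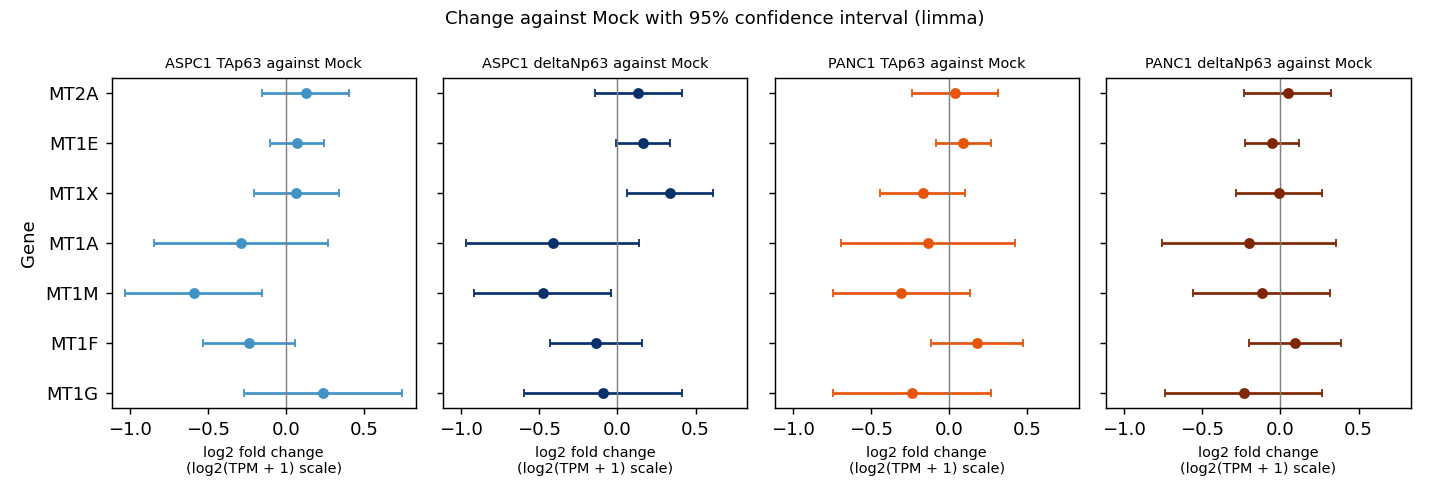
Log2 fold change against Mock on the log2(TPM + 1) scale (horizontal axis) for the 7 coding members, 1 panel per line and construct; points are estimates from limma and bars 95% confidence intervals. The intervals of 3 estimates exclude 0, MT1M in both ASPC1 panels and MT1X with deltaNp63 in ASPC1, and none passed after adjustment.

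In PANC1, the construct contrasts called few genes of any kind. MT1G, at 0 in 5 of the 6 PANC1 libraries, is left out of the counts that use that line. TAp63 against Mock called 0.00677% of all genes and 0 of the other 6 coding members, whose changes ranged from -0.30 for MT1M to 0.18 for MT1F. For deltaNp63 against Mock, 0.0406% of genes and 0 of 6 members were called, with changes from -0.20 for MT1A to 0.09 for MT1F. None of the 6 had an unadjusted p under 0.05 in either contrast, against 503 and 345 of all genes. The abundant MT2A was held within narrow bounds, with a 95% confidence interval of -0.24 to 0.32 for TAp63 and of -0.23 to 0.32 for deltaNp63 on the log2 scale. Groups did not overlap for 1 of 6 members in each, MT1X (lower) with TAp63 and MT1A (lower) with deltaNp63, against 42.4% and 27.1% of all genes.

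Setting the constructs against each other called no coding member in either line. In ASPC1, TAp63 against deltaNp63 called 0.0203% of all genes and 0 of 7 members. The count over all genes, 3, was 1025 without ASPC1 deltaNp63 replicate 2. Members ranged from -0.27 for MT1X (limma adjusted p = 0.628) to 0.33 for MT1G (limma adjusted p = 0.690). Groups did not overlap for 3 of 7, against 29.5% of all genes. In PANC1 the same contrast called 0.0271% of genes and 0 of 6 members, with values from -0.18 for MT1M to 0.15 for MT1E and groups apart for 2 of 6, against 34.0% of genes. These contrasts share libraries with those against Mock.

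The effects of the constructs were also compared between the lines, as PANC1 minus ASPC1. For TAp63, 0.0745% of genes and 0 of 6 members were called, and MT1F had the largest positive difference, 0.42 (limma adjusted p = 0.479). For deltaNp63, 0.582% of genes and 0 of 6 members were called, with differences from -0.35 for MT1X (limma adjusted p = 0.342) to 0.36 for MT1M (limma adjusted p = 0.522). With each library left out in turn, the counts over all genes, 11 and 86, ranged from 0 to 49 and from 44 to 2196, both highest without ASPC1 deltaNp63 replicate 2. No difference between the lines in a construct's effect passed after adjustment for any of the 6. Their intervals lay between -0.63 and 0.94 for TAp63 and between -0.73 and 0.998 for deltaNp63.

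MT1P1 was listed at 0 in 10 libraries and at 1.02 and 1.03 TPM in the PANC1 deltaNp63 libraries. Those are the values it was picked for. It lies at chr9:95413267-95413449 on the minus strand, inside FANCC, a Fanconi anaemia gene on the same strand, and overlaps 0 FANCC exons. FANCC was at 11.2 and 12.4 TPM in the same deltaNp63 libraries. Of the 153 words of 31 bases in the MT1P1 transcript, 49 also occur in other genes, 44 of them in MT2A, which was at 920 and 1104 TPM in those libraries. In the PANC1 Mock and TAp63 libraries, where MT1P1 was at 0, MT2A was between 894 and 1066 TPM and FANCC between 11.8 and 15.4. The longest exact stretch it shares is 61 bases with MT1G, 60 with MT2A, 58 with MT1X and 48 with MT1A.

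Zinc transporters and other genes tied to metallothionein control were examined from fixed lists, which were written with earlier results of these data known. Between the Mock groups, 72.5% of all genes passed, 6590 of 14767 higher in PANC1 and 4121 lower. With quantile normalization these numbers were 5682 and 4861, and with median centring 5605 and 4936. The counts below are to be read against them. They include genes that passed the filter through 1 line alone, for which a difference was bound to appear. Among the genes named, these were SLC30A4, SLC30A10, SLC39A8, ATP7B, SLC40A1 and GNAO1. Of 7 tested zinc exporters of the SLC30 family, 1 was higher in PANC1 and 3 lower. SLC30A1, the MTF1-driven zinc exporter of the cell surface, was 45.7 ± 3.15 TPM in ASPC1 Mock and 17.5 ± 1.79 in PANC1 Mock (SD, n = 2), a log2 difference of -1.34 (limma adjusted p = 1.11e-04). It was thus lower in the line with more MT2A. SLC30A10, better known for manganese, differed by -2.24, SLC30A7 by -0.43 and SLC30A4 by 1.80 on the log2 scale. SLC30A10 averaged 0.0668 TPM in PANC1 Mock and SLC30A4 averaged 0.0700 in ASPC1 Mock, so both passed the filter through 1 line, and with 0.1 added before taking logs they differed by -4.64 and 4.07.

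Of 12 tested SLC39 zinc importers, 6 were higher and 4 lower. The intestinal zinc importer SLC39A4 differed by -2.72, SLC39A8 by -1.59 and SLC39A14 by -1.51, the last 2 also carrying manganese, and SLC39A3 by 1.48. Copper handling genes were mostly higher, 10 of 13 against 2 lower. These included the metalloreductase STEAP3 at 2.56, the copper pump ATP7B at 1.82 and COMMD1 at 1.61, whereas the metalloreductase STEAP2 was at -5.38. SLC39A8 stayed below 1 TPM in PANC1 and ATP7B in ASPC1, and ATP7B differed by 3.75 with 0.1 added.

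MTF1 and other metal-responsive genes split, with 4 of 10 higher in PANC1 and 4 lower. Heme oxygenase HMOX1 was 2.12 ± 0.103 TPM in ASPC1 Mock and 251 ± 50.1 in PANC1 Mock (SD, n = 2), a log2 difference of 6.32 (limma adjusted p = 1.85e-10). GCLM, a subunit of the enzyme that starts glutathione synthesis, was higher by 3.06, while the iron exporter SLC40A1 and the ferritin heavy chain FTH1 differed by -2.64 and -2.22. SLC40A1 was near 0 in PANC1, at 0.396 TPM in Mock, and differed by -3.97 with 0.1 added. MTF1 itself was 11.8 ± 0.149 TPM in ASPC1 Mock and 9.26 ± 1.67 in PANC1 Mock (SD, n = 2), a log2 difference of -0.33 that did not pass (limma adjusted p = 0.158).

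Glucocorticoid-induced genes were mostly lower in PANC1, with 7 of 9 lower and 1 higher. TSC22D3, the glucocorticoid-induced leucine zipper, differed by -4.18, CEBPD by -2.45, the phosphatase DUSP1 by -1.78 and the clock gene PER1 by -1.27. Heat shock genes went the other way, with 8 of 10 higher and 2 lower: the co-chaperone BAG3 by 2.46, HSPA1A by 2.04, HSPA1B by 2.01 and DNAJA1 by 1.79. HSPA1A and HSPA1B are near-identical copies whose reads may be split. The neighbours of the cluster were mixed, 4 of 7 higher and 2 lower. GNAO1, a G protein subunit, differed by 2.28, the nuclear pore gene NUP93 by 1.295, the stress gene HERPUD1 by -0.93 and the cilium gene BBS2 by 0.57. GNAO1 averaged 0.00398 TPM in ASPC1 Mock and 3.86 in PANC1 Mock, and differed by 5.25 with 0.1 added.

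Among the contrasts of the constructs, those lists held calls only in ASPC1 with deltaNp63 against Mock, and all were lower, in a contrast that called 7.14% of all genes, 961 lower and 94 higher, and only 8 with the ASPC1 libraries alone. MTF1 fell from 11.8 ± 0.149 to 6.46 ± 0.306 TPM (SD, n = 2), a log2 change of -0.78 (SE 0.20, limma adjusted p = 0.0475). That call was lost in 17 of 21 alternatives, and the change was -0.17 when only protein-coding transcripts were summed (limma adjusted p = 0.396). SLC39A10, a zinc importer, fell by 0.46 (limma adjusted p = 0.0393) and SCO2, a copper chaperone of cytochrome oxidase, by 0.69 (limma adjusted p = 0.0252). These calls were lost in 14 and 11 of 21 alternatives.

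Heat shock genes gave 5 of 10 lower in that contrast, against 961 of 14767 genes lower. HSPA1A fell by 0.66, DNAJA1 by 0.49, BAG3 by 0.44, HSP90AA1 by 0.43 and HSPA1B by 0.42 on the log2 scale, with limma adjusted p between 0.0210 and 0.0432. The calls were lost in 7 of 21 alternatives for HSPA1A, 14 for BAG3 and 12 for each of the other 3. SLC30A1 was called in none of the construct contrasts, with means of 53.3 TPM in TAp63 and 50.9 in deltaNp63 cells of ASPC1, and 16.4 and 14.6 in those of PANC1.

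The genes whose pattern was most like each coding member were sought over the 12 libraries, after subtracting the mean of the line from log2(TPM + 1), among 10214 genes with a mean of at least 5 TPM. With so few libraries and so many genes, high values are bound to occur, and no p is given. EIF4A1 was nearest to MT1X (Pearson r = 0.962), followed by NIT1 (0.961) and RIT1 (0.942). SLC35B4 (r = 0.951), SLC25A14 (0.927) and NDUFA10 (0.912) were nearest to MT1A. For MT2A the nearest were FAM83G (r = 0.918), EPC1 (0.915) and C8orf58 (0.909).

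MT1E was followed most closely by SS18L1 (r = 0.896), LUC7L (0.821) and ENSG00000291095 (0.821), a noncoding gene over the metallothionein pseudogene MT1DP. For MT1M they were TRNP1 (r = 0.894), SLC25A37 (0.892) and SEMA3A (0.888). MT1F had LINC00511 (r = 0.833), TOPBP1 (0.831) and MAP7D3 (0.822), and MT1G had CACNA2D4 (r = 0.840), TTL (0.833) and XYLT1 (0.829). Between members, the highest r was 0.620, for MT1X and MT2A, then 0.580 for MT1E and MT2A. The lowest was -0.507, for MT1X and MT1F.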

How the data were processed

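The authors deposited TPM values for 153329 transcripts in 12 libraries, each column summing to 1000000. RNA was extracted with an RNeasy plus mini kit and libraries were made with a TruSeq Stranded mRNA kit, per the labels. Which quantifier, build and annotation they used is not given in the sources used here. Because read depth cannot be read from TPM, it is unknown, and precision comes from the replicates alone.

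Columns were matched to samples by their titles. Transcripts were paired with genes through GENCODE v44 (hg38), which may differ from the authors' annotation. Of the transcripts, 139819 (91.2%) were paired, holding between 89.6% and 90.5% of a library's TPM, and 13510 were left out. TPM was summed to 39099 genes and analysed as log2(TPM + 1), a scale that understates changes of low genes. A gene needed 1 TPM or more in 2 or more libraries, which left 14767 genes to be tested with limma 3.58.1 in R 4.3.3: a mean for each of the 6 groups, eBayes with trend, 6 residual degrees of freedom and 9 contrasts. P-values were two-sided and adjusted by Benjamini-Hochberg over all genes within a contrast, with a threshold of 0.05. The fit was tested on simulated data. No pair of libraries held identical values.

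The members and lists were chosen with earlier results of these data known. Every metallothionein of the annotation, MTF1, SLC30A1 and TP63 were named always, with at most 4 called genes per list and contrast, by size of change. HSPA1B and ENSG00000291105 were added after their values were seen. MT1P1 was not tested. Alternatives were quantile normalization, median centring, no filter, a mean of at least 5 TPM, a pseudocount of 0.1, no trend, only the libraries of the cell line, a replicate block, protein-coding transcripts only and leaving out each library.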

Additional observations from a re-analysis of the deposited data

How the results depend on the processing

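The 6 calls between the Mock groups held under every alternative run, with MT1G left out. In 7 of the 8 construct contrasts no member was called under any alternative, leaving out MT1G where PANC1 libraries were used. In ASPC1 deltaNp63 against Mock, median centring called 1 member (MT1E), and leaving out 1 library gave between 0 and 1. The same-numbered samples of a line did not all deviate together (r between -0.094 and 0.293, the highest for ASPC1 TAp63 and deltaNp63). Whether same-numbered samples shared a batch was not tested. With the replicate block, 0 members were called in the 8 construct contrasts, leaving out MT1G where PANC1 libraries were used. With that block, 1633 of all genes were called in ASPC1 deltaNp63 against Mock, in place of 1055. After quantile normalization the summed level was 324 TPM in ASPC1 deltaNp63, where it had been 303, and 1418 in PANC1 TAp63, where it had been 1360. A pseudocount of 0.1 moved the difference of the Mock groups to -4.64 for SLC30A10, 4.07 for SLC30A4, 5.25 for GNAO1, 3.75 for ATP7B and -3.97 for SLC40A1, and with protein-coding transcripts only SLC39A4 was at -4.60. BBS2 lost its call in 4 of 20 alternatives and SLC30A7 in 2 of 20.

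Changes of sign were seen only among values that had not passed. With quantile normalization, ASPC1 deltaNp63 against Mock was 0.0787 for MT1F and 0.11 for MT1G, and with median centring 0.0695 and 0.12. MT1X in PANC1 deltaNp63 against Mock became 0.0157 and 0.0121 under the same scalings. MT2A in PANC1 TAp63 against deltaNp63 became 0.0221 with quantile normalization. The line difference in the TAp63 effect on MT1E became -0.0190 and -0.12. MTF1 between the Mock groups was 0.12 with protein-coding transcripts only, and passed with quantile normalization (-0.54) and median centring (-0.50). With each library left out in turn, the following log2 values took both signs. For ASPC1 TAp63 against Mock, MT1A ranged between -0.58 and 0.00393, MT1G between -0.10 and 0.57 and MT1X between -0.036 and 0.17. For ASPC1 TAp63 against deltaNp63, MT1A ranged between -0.19 and 0.44, MT1M between -0.32 and 0.10 and MT2A between -0.10 and 0.0823. For the cell-line difference in the TAp63 effect, MT1A ranged between -0.14 and 0.45, MT1E between -0.0465 and 0.0927 and MT2A between -0.21 and 0.0401. For the cell-line difference in the deltaNp63 effect, MT1A ranged between -0.10 and 0.53, MT1G between -0.48 and 0.19 and MT2A between -0.22 and 0.0423. For PANC1 TAp63 against deltaNp63, MT1A ranged between -0.0486 and 0.18, MT1F between -0.00322 and 0.18 and MT2A between -0.14 and 0.12. For PANC1 deltaNp63 against Mock, MT1E ranged between -0.13 and 0.0134, MT1F between -0.0276 and 0.21, MT1M between -0.28 and 0.038, MT1X between -0.11 and 0.0933 and MT2A between -0.0854 and 0.18. For ASPC1 deltaNp63 against Mock, MT1G ranged between -0.43 and 0.25. For PANC1 TAp63 against Mock, MT2A ranged between -0.0884 and 0.17. The causes were not tested, and depth is unknown for all values.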
